A study of Mus musculus with 123 samples.

Results

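The 328 regions described here are the open-chromatin peaks that lie around 4 genes of the circadian clock in mouse cortex: Dbp, Ciart, Per2 and Arntl. A peak was a member when its first base lay within 500 kb of the lowest coordinate of one of the genes on the mouse genome build mm10 (Dbp chr7 45705100, Per2 chr1 91415977, Ciart chr3 95878500, Arntl chr7 113178471). Of 130727 peaks in the table, 103 fell in the Dbp window, 77 in the Per2 window, 79 in the Ciart window and 69 in the Arntl window. All 328 were measured in every library and none was dropped by a filter. The rule uses positions and no measured value, although the 4 genes were picked with earlier results of these data known.

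Accessibility (ATAC-seq, in which a transposase cuts open DNA) and messenger RNA (RNA-seq) were both measured in 59 animals, and RNA alone in 1 more at ZT18 and 2 more at T66. The animals were male mice of the inbred strain C57BL/6J, aged 11 to 12 weeks, in 12 h of light and 12 h of dark, with cerebral cortex as the tissue. Deprived mice were kept awake for 6 h, by gentle handling, starting at ZT0 (zeitgeber time, hours after lights on), which the study counts as hour 24. Deprived groups held 3 ATAC animals each at T27 (after 3 h awake), T30 (after 6 h), T36, T42, T48, T54, T60, T72, T78, T192 and T198, and 1 at T66. Undisturbed controls held 8 animals at ZT0, 3 at ZT3, 5 at ZT6, 5 at ZT12 and 4 at ZT18, and each deprived group was set against controls of its own time of day. The labels name no allele or agent in any group, and the tissue is bulk cortex with all its cell types.

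The clock is a loop of transcription. BMAL1, the product of Arntl, pairs with CLOCK and binds E-boxes (CACGTG) near its target genes, and the products of targets such as Per2 and Ciart hold the pair back. Dbp is another direct target, and its product drives output genes through a different element. In the cortex these transcripts are known to respond to wakefulness as well as to the clock.

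Among the genes with a promoter entry, which Per2 lacked, the Ciart promoter held several E-boxes. The RefSeq promoter sequences (GRCm38.p6, 250 bases before to 50 after each start, 5′ to 3′ on the gene's strand) are therefore shown with motif letters in capitals. Capitals mark CACGTG (E-box), TGACGTCA (CRE), AGGTCA (nuclear receptor core site) and TTATGTAA (D-box), searched on both strands. Each promoter lies wholly inside the peak over the start. Ciart is at chr3:95882179-95882478 on the minus strand, Dbp at chr7:45704997-45705296 and Arntl at chr7:113207215-113207514, both on the plus strand.
Ciart: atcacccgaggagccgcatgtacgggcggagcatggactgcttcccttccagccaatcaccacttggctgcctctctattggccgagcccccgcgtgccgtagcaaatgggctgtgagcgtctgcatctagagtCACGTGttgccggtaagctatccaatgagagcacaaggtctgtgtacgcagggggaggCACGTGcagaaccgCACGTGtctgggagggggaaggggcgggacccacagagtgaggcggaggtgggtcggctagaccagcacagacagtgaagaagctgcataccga
Dbp: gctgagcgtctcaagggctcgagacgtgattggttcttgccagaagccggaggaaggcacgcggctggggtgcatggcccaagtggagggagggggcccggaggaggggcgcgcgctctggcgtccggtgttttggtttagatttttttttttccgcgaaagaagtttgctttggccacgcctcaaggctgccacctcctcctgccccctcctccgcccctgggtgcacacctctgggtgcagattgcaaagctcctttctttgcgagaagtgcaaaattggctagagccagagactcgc
Arntl: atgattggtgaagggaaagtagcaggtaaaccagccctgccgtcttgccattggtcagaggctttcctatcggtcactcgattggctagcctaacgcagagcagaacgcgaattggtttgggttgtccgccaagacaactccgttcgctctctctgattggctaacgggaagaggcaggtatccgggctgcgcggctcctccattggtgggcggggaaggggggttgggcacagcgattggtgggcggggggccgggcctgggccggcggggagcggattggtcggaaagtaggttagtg

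The Ciart promoter holds 3 E-boxes, whose first bases lie at -116, -58 and -44 from the start. Of 32851 promoters of this length, 7.15% hold at least 1 such letter string and 29, or 0.0883%, hold 3 or more. The windows of Dbp and Arntl shown here hold 0 of the 4 motifs. Another annotated Arntl start lies in the same peak, and its promoter (chr7:113207261-113207560, not shown) holds 1 AGGTCA core site. Per2 was not searched. Each motif alone is found in 1.79% (CRE), 16.3% (core site) and 0.938% (D-box) of promoters.

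The windows differed in how they are built. The Dbp window is crowded, with 62 annotated gene starts, and 35 of its 103 peaks lay within 1 kb of a start (start-proximal), 58 in gene bodies and 10 between genes. The Ciart window had 47 starts, with 34 start-proximal peaks, 23 in gene bodies and 22 between genes. The Per2 window had 24 starts (15, 40 and 22 peaks), and the Arntl window 12 (6, 35 and 28 peaks). The peak over the Per2 start counts among the gene bodies, because no promoter entry for Per2 was at hand. Peak signal, in the authors' normalized units, had window medians of 5.58 (Dbp), 6.29 (Ciart), 4.84 (Per2) and 4.49 (Arntl). The median member had few reads per library: 23 in the Dbp window, 27 in the Ciart window and 19 in each of the other two.

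Reads in peaks ranged between 2.206 and 11.912 M (M for 1e6 reads) per library (median 4.095 M). The libraries carry labels of 2 batches, and T27, T30 and T36 are wholly in batch 1, while the controls come from both batches except at ZT3, which is wholly batch 1. Neuronal markers were present in the RNA of the same animals, with all 5 excitatory markers at mean levels of 5.87 to 10.6 and all 5 inhibitory markers at 5.43 to 8.63 log2 units. All 3 choroid plexus markers were lower at T27, with summed levels of 7.12 to 7.25 at T27 against 7.37 to 8.57 at ZT3. Both meninges markers were lower there too (3.92 to 4.31 at T27 against 4.38 to 5.00 at ZT3), and 2 of 3 microglia markers were lower at T30 (6.70 to 6.73 against 6.82 to 6.85 at ZT6). The other marker calls at T27 were 1 excitatory higher, 1 excitatory lower and 1 microglia lower. At T30 they were 1 excitatory higher, and 1 each of oligodendrocyte, choroid plexus and striatum lower. Over all genes 15.6% changed at T27 and 31.6% at T30. The part of these cell types in the results was not tested.

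After 6 h of sleep deprivation 7 of the 328 peaks were lower at T30 than at ZT6 and 0 were higher (limma, Benjamini-Hochberg adjusted p below 0.05 over all peaks, the rule for every call below). The comparison is with controls of the same hour and not with the level before deprivation. Of the 7 lower peaks, 6 lay in the Dbp window, 2 of them beside the Dbp start, and 1 was the peak over the Ciart start. Over all peaks 0.427% were called lower and 2.18% higher at T30. None of the 7 passed under 2 corrections, both added after seeing the data, for shifts that many peaks share. With each library's share of reads in start-proximal peaks as a covariate, 1 other member was called, and after subtracting the running median of neighbouring peaks (neighbour centring), 3 others were called. All of these were higher and in the Arntl window. The share covariate did not overlap between T30 (27.3% to 28.5%) and ZT6 (28.6% to 30.3%), so the first correction can remove part of the group difference itself. The running median spans about as many peaks as a window holds, so the second correction removes what a window's peaks have in common.

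**Figure D1:**
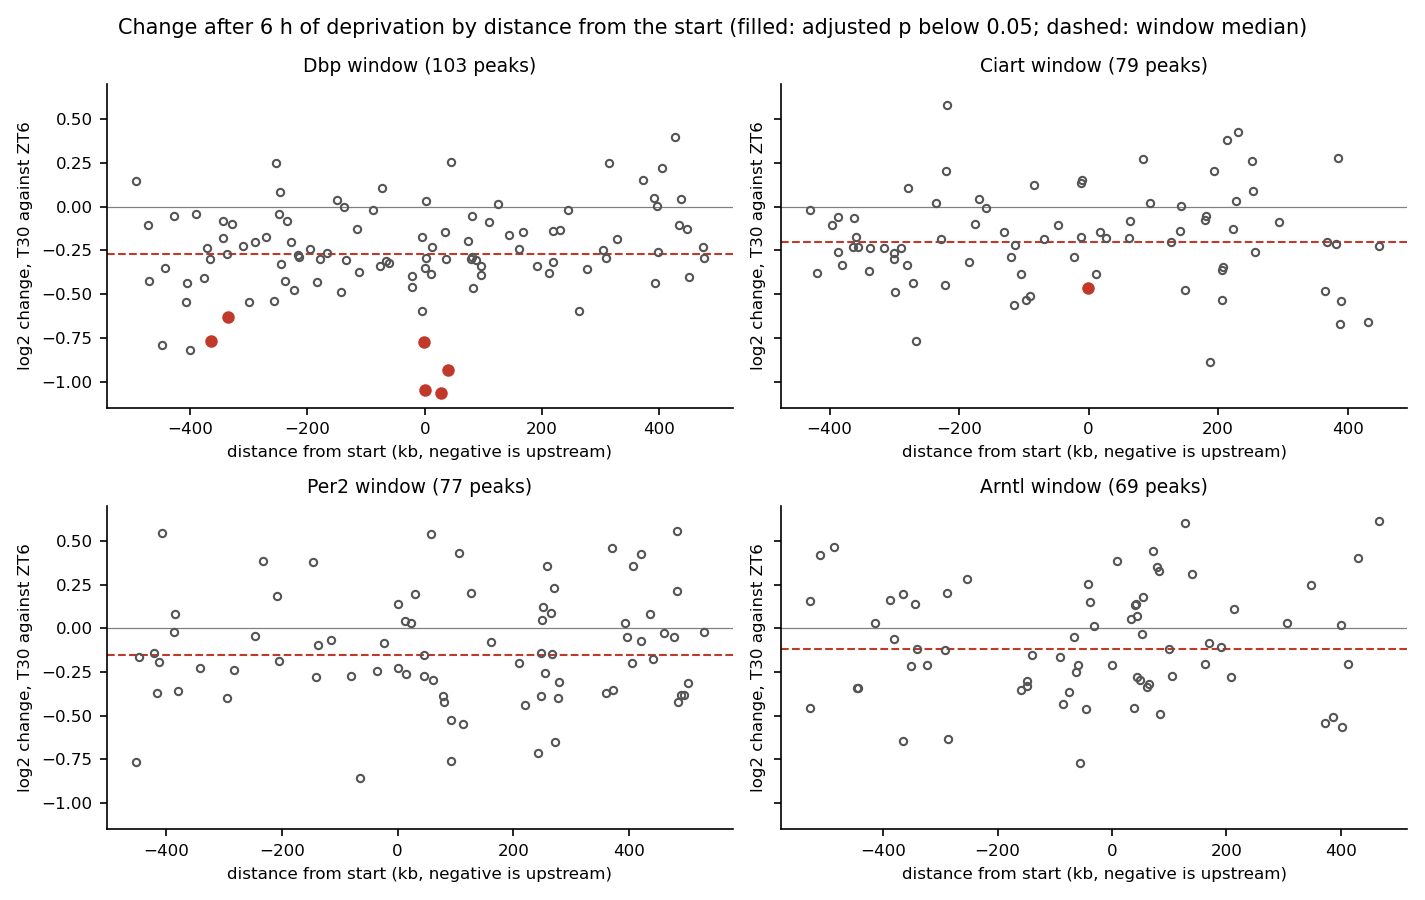
Log2 change in accessibility at T30 against ZT6 (vertical axis) of each member by its distance from the gene's start in kb (horizontal axis, upstream negative); filled red points had an adjusted p below 0.05, and the dashed line is the window's median. Most points lie below zero in the Dbp and Ciart windows, with medians of -0.27 and -0.20, and the called Dbp peaks sit both at the start and far from it.

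In each window most peaks lay below zero at T30, though neighbouring peaks of the same libraries are not independent. In the Dbp window 87 of 103 peaks lay below zero (84.5%), with a median log2 change of -0.27. The Ciart window had 61 of 79 below zero and a median of -0.20, the Per2 window 53 of 77 and -0.15, and the Arntl window 40 of 69 and -0.12. All peaks of the table had 52.6% below zero and a median of -0.02. The share of a library's reads that fell in the Ciart window was 0.08288% to 0.08839% at T30 against 0.09195% to 0.1056% at ZT6, without overlap. These shares overlapped between T30 and ZT6 for Dbp (0.09191% to 0.105% against 0.1028% to 0.1341%) and Per2 (0.05617% to 0.06147% against 0.06007% to 0.0719%). They also overlapped for Arntl (0.04963% to 0.05297% against 0.04752% to 0.05631%). Peaks of gene bodies (median -0.17) and between genes (-0.18) were lower along with start-proximal members (-0.23), and all start-proximal peaks of the genome had a median of -0.10.

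Across the genome the change at T30 was lower where more gene starts lay nearby. All peaks were divided into 5 classes of about equal size by the number of annotated starts within 500 kb. The median change at T30 was 0.06 in the class with 0 to 5 starts, 0.04 with 6 to 11, -0.004 with 12 to 17, -0.06 with 18 to 26 and -0.12 with 27 to 88 starts. Members of the Dbp window had 33 to 86 starts within the same distance, members of the Ciart window 44 to 56, of the Per2 window 16 to 32 and of the Arntl window 11 to 14. All 4 windows, Per2 and Arntl included, had medians below those of every class that their members' numbers of starts fall in. Each window is a single stretch of neighbouring peaks, and medians of other windows of this size were not taken. How often a window departs this far from its class was therefore not tested. Libraries at T30 had 27.3% to 28.5% of their reads in start-proximal peaks, against 28.6% to 30.3% at ZT6. At later times, with 0 calls, the median of the Dbp window took both signs. It was -0.16 at T54, -0.11 at T78 and -0.34 at T198, which share the ZT6 controls with T30, so these signs are not independent of each other. It was 0.11 at T36, 0.04 at T42, 0.04 at T48, 0.07 at T60, 0.34 at T66 (1 library), 0.05 at T72 and -0.00 at T192, against controls of other times.

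**Figure D2:**
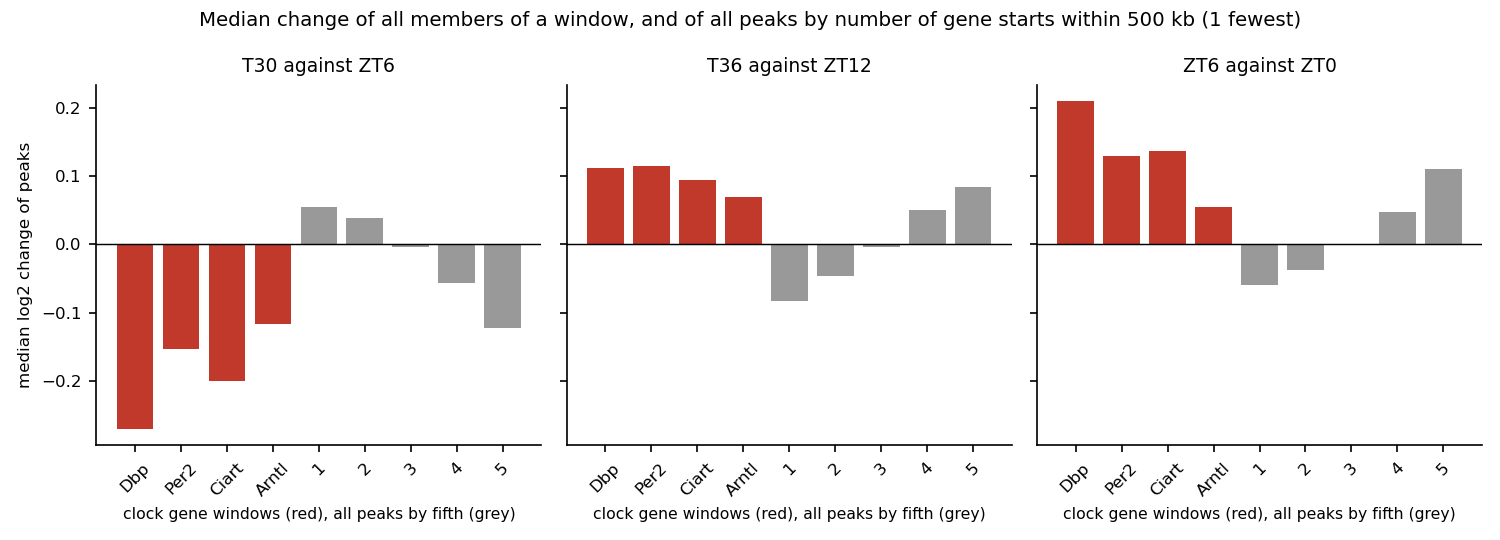
Median log2 change of peaks (vertical axis) in the 4 clock gene windows (red) and in all peaks in 5 classes by the number of gene starts within 500 kb (grey, 1 has the fewest), for T30 against ZT6, T36 against ZT12 and ZT6 against ZT0. The Dbp window stands at -0.27 at T30 and 0.21 at ZT6 against ZT0, and the grey bars change sign with the number of starts in each comparison.

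Dbp encodes a PAR bZIP transcription factor, and the 2 peaks that flank its start were both called lower at T30. The upstream peak (chr7_180772, chr7:45704007-45704508, 990 bp before the start and inside the annotated neighbour Car11) had signals of 9.95, 13.1 and 13.3 in the T30 animals, against 18.4, 18.8, 20.8, 22.7 and 23.8 in the ZT6 animals. Every T30 library was below every ZT6 library. Mean signals were 12.1 ± 1.90 in T30 animals (SD, n = 3) and 20.9 ± 2.37 in ZT6 animals (SD, n = 5), a 1.71-fold difference (log2 change -0.77, SE 0.17, limma adjusted p = 0.00373).

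The downstream peak (chr7_180774, chr7:45705981-45706185, 836 bp after the start, within Dbp) was smaller and had as few as 10 reads in a library of this comparison. Its signals were 2.90, 4.29 and 4.61 at T30, against 7.47, 7.58, 8.04, 8.83 and 9.22 at ZT6, again with no overlap. The log2 change was -1.05 (SE 0.25, limma adjusted p = 0.00812), a 2.07-fold difference. With the share covariate both missed the threshold, at -0.62 (adjusted p = 0.0602) for the upstream and -0.88 (adjusted p = 0.0781) for the downstream peak, and with neighbour centring at -0.48 (adjusted p = 0.112) and -0.76 (adjusted p = 0.0871).

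The peak over the Dbp start itself (chr7_180773, chr7:45704708-45705522) was not called. Its signals were 26.2, 29.6 and 34.3 at T30, against 33.0, 38.0, 38.3, 42.4 and 44.0 at ZT6, so the groups overlapped. The log2 change was -0.35 (SE 0.15, limma adjusted p = 0.215).

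The other 4 lower peaks called in the Dbp window were away from the gene. A peak in the body of Ppfia3 (chr7_180715, chr7:45341065-45341818) had 6.09, 7.28 and 8.58 at T30, against 11.1, 11.1, 11.8, 14.1 and 16.9 at ZT6 (log2 change -0.77, SE 0.18, limma adjusted p = 0.00641). It was also the only member called at T27, where its signals were 6.53, 8.88 and 8.97 against 12.7, 13.9 and 15.9 at ZT3 (log2 change -0.78, SE 0.20, limma adjusted p = 0.0292). Over all peaks 0.0314% were called lower and 0.658% higher at T27, and that single call was lost when any 1 of the 6 libraries of the comparison was left out.

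The peak over the start of Lin7b, a gene for a scaffold protein of synapses, had 12.4, 12.8 and 17.2 at T30, against 18.2, 18.3, 18.8, 23.8 and 30.8 at ZT6 (log2 change -0.63, SE 0.16, limma adjusted p = 0.0160). Lin7b RNA was lower in the same comparison by -0.37 log2 units (SE 0.08, limma adjusted p = 0.000172). Ppfia3 RNA was not called there (-0.07, SE 0.05, limma adjusted p = 0.292). Both remaining lower peaks lay in the body of Sult2b1, a sulfotransferase gene, and rested on few reads. They had log2 changes of -1.06 (SE 0.30, limma adjusted p = 0.0314, at least 3 reads per library of the comparison, groups overlapping) and -0.94 (SE 0.27, limma adjusted p = 0.0379, at least 7 reads). Sult2b1 RNA was not called (0.03, SE 0.09, limma adjusted p = 0.864).

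The count at T30 depended on single animals. It was 1 without T30S1 and 3 without T30S4, and 3 without the ZT6 control T6N4. Without T30S1 the upstream Dbp peak was the one still called, and it was lost without T30S4 (log2 change -0.64, limma adjusted p = 0.0857).

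Dbp RNA was lower at T27, T30 and T36. At T27 the change was -0.40 (SE 0.14, limma adjusted p = 0.0358), which was lost without any 1 of T27S2, T27S3, T27S5, T3N2 and T3N4. At T30 its level was 5.6 ± 0.13 log2 units (SD, n = 3), against 6.56 ± 0.13 in ZT6 animals (SD, n = 5), a change of -0.96 (SE 0.13, limma adjusted p = 6.95e-08). In bulk cortex, fewer cells of a type and less RNA per cell cannot be told apart. At T36 Dbp RNA was still lower by -0.63 log2 units (SE 0.13, limma adjusted p = 0.000434; -0.34 with adjusted p = 0.0698 without T36S1). The upstream peak then stood at 19.7, 20.1 and 20.6 in T36 animals, against 16.3, 16.4, 17.7, 20.2 and 23.6 in ZT12 animals, and its change was 0.10 (SE 0.17, limma adjusted p = 0.871).

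At T48 Dbp RNA was higher, at 6.06 to 6.29 log2 units against 5.06 to 5.70 at ZT0. The groups did not overlap, and the change was 0.79 (SE 0.12, limma adjusted p = 5.34e-05), where 1.27% of all genes changed. At T72 it was higher by 0.63 (SE 0.12, limma adjusted p = 0.0416), the only gene of 13842 (0.00722%) called there. The T72 call was lost within batch 1 (limma adjusted p = 0.0712), without the intensity trend (limma adjusted p = 0.0603), without any 1 of T72S2, T72S3 and T72S4, and without any 1 of 5 of the 8 ZT0 animals (T0N1, T0N2, T0N3, T0N5 and J70N1). In these cases the change stood between 0.54 and 0.71. The T48 and T72 comparisons share the ZT0 controls.

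The difference between the T36 and T30 changes of that peak was 0.87 log2 units (SE 0.24), with an adjusted p of 0.0664, which missed the threshold. It was the lowest adjusted p of any member for that difference, which 0.352% of all peaks passed. Without the ZT12 control T12N2 it passed (limma adjusted p = 0.0422), as it did without the ZT6 control T6N2 (limma adjusted p = 0.0471).

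Of 36 other protein-coding genes tested in the Dbp window, 1 was higher at T30 (Sphk2, a sphingosine kinase gene, by 0.43 log2 units) and 6 were lower (Abcc8, Dhdh, Kcnj11, Lin7b, Mamstr and Trpm4). Their median RNA change was 0.00, and 31.6% of all genes changed in either direction at T30.

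Ciart encodes a repressor that binds BMAL1, and the peak over its start (chr3_133035, chr3:95881808-95883363) was less accessible at T30 than at ZT6. At T30 its signals were 35.4, 37.1 and 40.2, against 46.9, 48.9, 49.5, 57.2 and 59.8 at ZT6, with no overlap. Mean signals were 37.6 ± 2.43 in T30 animals (SD, n = 3) and 52.4 ± 5.66 in ZT6 animals (SD, n = 5), a 1.38-fold difference (log2 change -0.47, SE 0.13, limma adjusted p = 0.0305). The change was -0.25 (adjusted p = 0.366) with the share covariate and -0.31 (adjusted p = 0.268) with neighbour centring. The call was also lost without T30S1, T30S4, T6N4 or J76N2 (limma adjusted p between 0.0622 and 0.158) and without the intensity trend of the model (adjusted p = 0.0961).

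At T27 the Ciart peak stood at 35.1, 37.8 and 40.2, against 44.9, 46.9 and 49.4 at ZT3. The groups did not overlap, but the change of -0.32 (SE 0.14) was not called (limma adjusted p = 0.363). At T36 it was 45.1, 47.1 and 52.5, against 47.1, 55.3, 57.8, 59.3 and 61.3 at ZT12 (log2 change -0.21, SE 0.13, limma adjusted p = 0.538).

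Ciart RNA was level with controls at T27 (0.01 log2 units, SE 0.20, limma adjusted p = 0.987) and lower at T30 (-0.65, SE 0.19, limma adjusted p = 0.00559). It was lower at T36 too, by -0.84 (SE 0.19, limma adjusted p = 0.00134), and without T36S1 by -0.53 with a limma adjusted p of 0.0912. At T48, light onset of the next day, Ciart RNA was higher by 0.70 (SE 0.18, limma adjusted p = 0.0267). That call was lost without any 1 of T48S1, T48S3, T48S4, T0N3 and T0N5 (limma adjusted p between 0.0506 and 0.205).

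**Figure D3:**
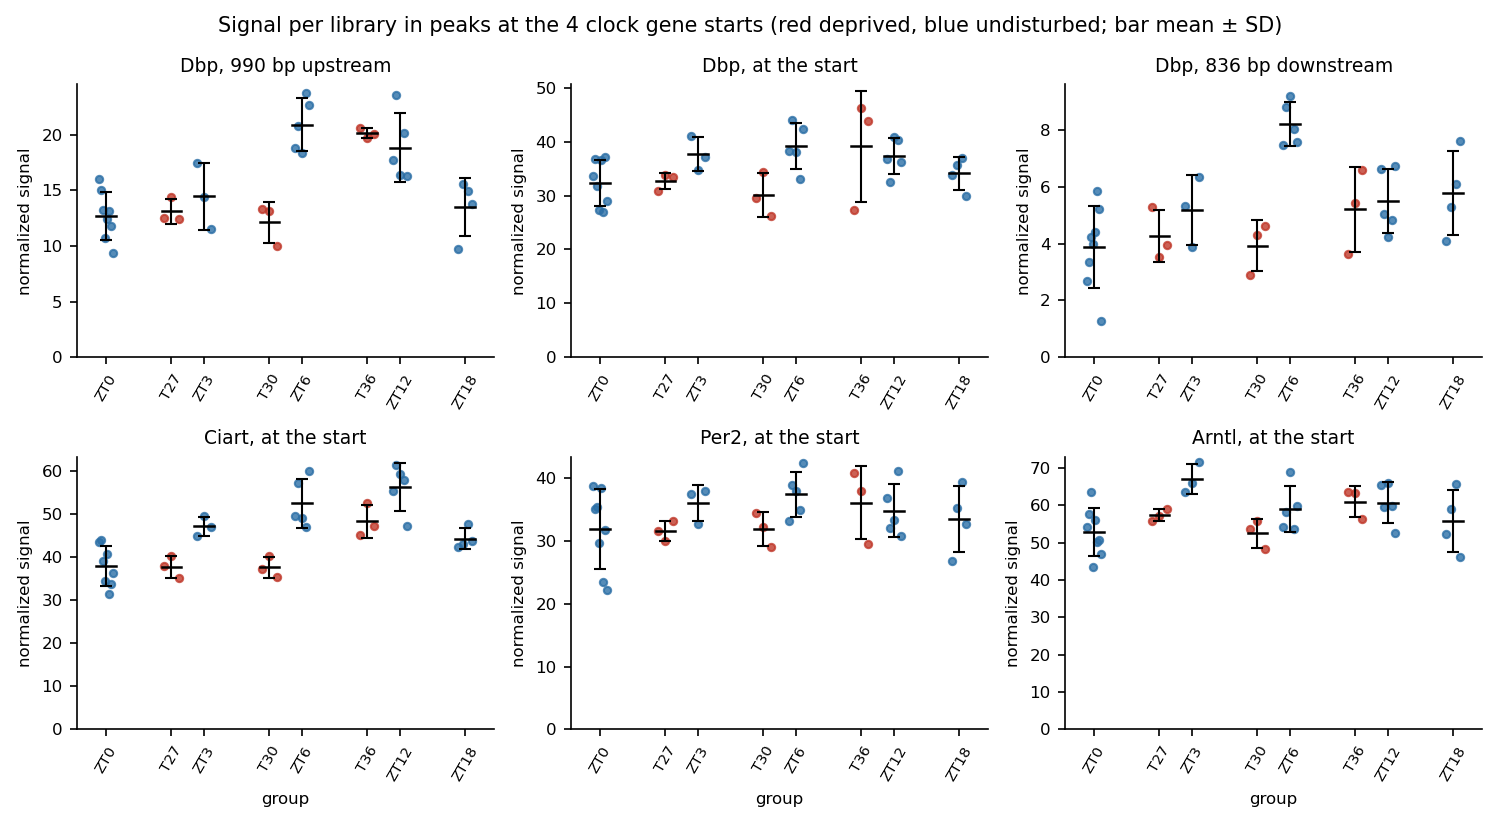
Normalized ATAC signal per library (vertical axis) in 6 peaks at the starts of the 4 genes, by group (horizontal axis); red points are deprived animals, blue points undisturbed animals, and bars give the mean ± SD. Both Dbp flanking peaks and the Ciart peak are lower in every T30 animal than in every ZT6 animal, while the Per2 and Arntl peaks overlap between those groups.

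Per2 encodes a core repressor, and its RNA changed with no called change at its start. Per2 RNA was higher at T27 by 1.35 log2 units (SE 0.18, limma adjusted p = 1.3e-06), with animals between 4.56 and 4.84 at T27 against 3.02 to 3.74 at ZT3. At T30 it was higher by 0.97 (SE 0.17, limma adjusted p = 1.52e-05). The peak over the Per2 start (chr1_7704, chr1:91459074-91459875) had signals of 30.0, 31.6 and 33.2 at T27, against 32.7, 37.5 and 37.9 at ZT3, a change of -0.18 (SE 0.16, limma adjusted p = 0.723).

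At T30 the Per2 start peak had 29.1, 32.2 and 34.5, against 33.2, 34.9, 38.0, 38.9 and 42.4 at ZT6 (log2 change -0.23, SE 0.14, limma adjusted p = 0.467). Both values were below zero while the RNA was higher. No member of the Per2 window was called in any of the 12 deprivation comparisons, and the 77 changes ranged between -0.86 and 0.56 log2 units at T30.

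Arntl encodes BMAL1, the activator of the loop, and its start peak was the highest of the 4 start peaks. It is chr7_185680, at chr7:113206871-113208481, with a mean signal of 58.9. It had signals of 48.3, 53.6 and 55.8 at T30, against 53.8, 54.1, 58.2, 59.8 and 68.9 at ZT6 (log2 change -0.21, SE 0.12, limma adjusted p = 0.418). Arntl RNA was higher by 0.23 at T30 (SE 0.06, limma adjusted p = 0.00453) and by 0.41 at T36 (SE 0.06, limma adjusted p = 6.99e-06), and lower by -0.37 at T48 (SE 0.06, limma adjusted p = 0.000355).

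At T36, 6 h into recovery, 2 members were higher and 0 lower; over all peaks 0.261% were called higher and 0.357% lower. One was an intergenic peak 42.6 kb before the Arntl start (chr7_185670, chr7:113164562-113165123). Its signals were 9.76, 10.3 and 12.0 at T36, against 3.03, 4.66, 4.73, 6.72 and 9.40 at ZT12, with no overlap (log2 change 0.95, SE 0.22, limma adjusted p = 0.0204). This call held with the share covariate (adjusted p = 0.0113) and with neighbour centring (adjusted p = 0.0452). It was lost in edgeR's quasi-likelihood test on whole reads (adjusted p = 0.0667) and without any of T36S1, T36S2, T12N2 and T12N4 (adjusted p between 0.0602 and 0.129), and without the intensity trend (adjusted p = 0.0539).

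The other was an intergenic peak in the Ciart window (chr3_133107, chr3:96312347-96312966), 430 kb before the start. It had 6.89, 7.41 and 10.6 at T36, against 2.59, 3.04, 3.70, 5.04 and 5.48 at ZT12 (log2 change 0.93, SE 0.24, limma adjusted p = 0.0352; adjusted p = 0.0706 in edgeR). Neighbour centring gave 0.84 (adjusted p = 0.0804) and batch 1 alone 0.95 (adjusted p = 0.0541), and the call was lost without T36S1, T36S2, T12N1, T12N2 or T12N6. The count of 2 at T36 was 0 without T36S1, without T36S2 or without T12N2, and 1 without T12N1, T12N4 or T12N6.

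From T42 on, in 9 comparisons that reach a week after deprivation, limma called 0 members and so did edgeR. Over all peaks limma called at most 0.00153% in these comparisons, at T48. With array weights, which weight libraries by their noise, limma called 7 members, all at T192. The share of all peaks called with array weights was not taken, so these 7 have nothing to be set against. Libraries at T192 differed by a mean chi-square per peak of 1.827 to 3.526, the latter the highest of any replicate pair. At an unadjusted limma p below 0.05 between 7 (T192) and 50 (T198) of the 328 members passed. A share of about 0.05 is expected to pass by chance alone, and the share of all peaks that passed was not taken. Neighbouring members are not independent, so these counts show no effect by themselves. T198 is wholly in batch 2, and its libraries differed by a mean chi-square per peak of 1.353 to 2.58. T66 rests on 1 library, whose spread was borrowed from the remaining groups.

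**Figure D4:**
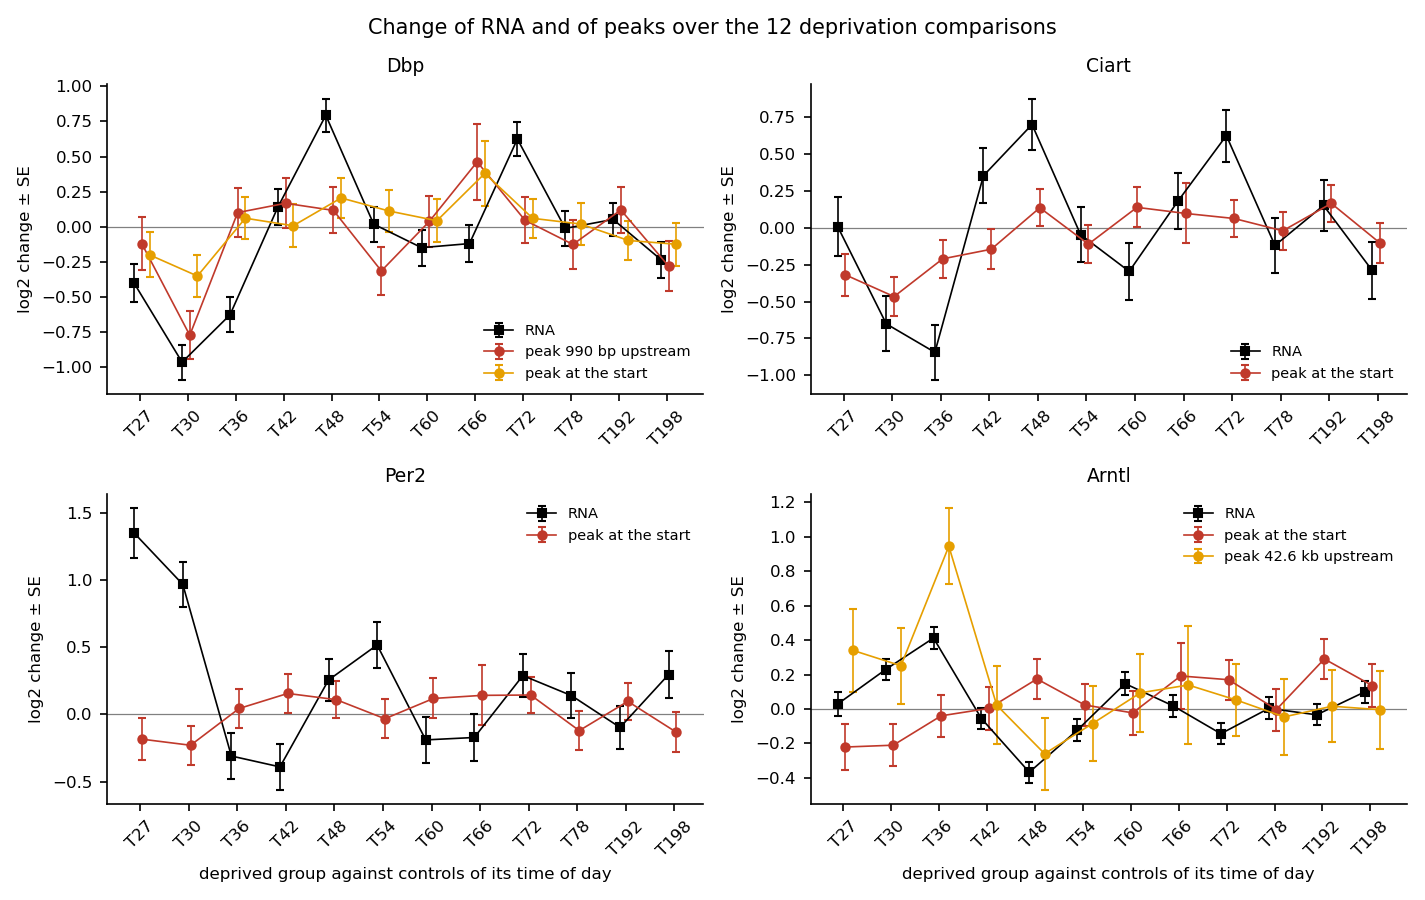
Log2 change ± SE (vertical axis) of RNA (black) and of peaks (coloured) over the 12 deprivation comparisons (horizontal axis), each deprived group against controls of its time of day; T66 has 1 ATAC library. Dbp RNA is lowest at T30 (-0.96) and the Arntl upstream peak is highest at T36 (0.95), while the Per2 start peak stays between -0.23 and 0.16 as its RNA reaches 1.35.

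The peaks called at T30 beside the Dbp start and over the Ciart start also differed between times of day in undisturbed animals. In all, 4 of the 328 members did so (limma F-test over 5 times), a share no higher than the 1.39% of all peaks. They were the Ciart start peak (range 0.57 log2 units, adjusted p = 0.000862), both peaks that flank the Dbp start, and the peak over the start of Bax, an apoptosis gene (adjusted p = 0.0499). The count was 8 without the ZT6 animal J76N1, 7 without T6N2 and 1 with neighbour centring. The Ciart peak averaged 37.8 ± 4.68 at ZT0 (SD, n = 8), 47.1 ± 2.28 at ZT3 (n = 3), 52.4 ± 5.66 at ZT6 (n = 5), 56.1 ± 5.51 at ZT12 (n = 5) and 44.2 ± 2.46 at ZT18 (n = 4). It was highest at ZT12, as was its RNA, which ranged over 1.95 log2 units.

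At ZT12 the Ciart peak had 47.1, 55.3, 57.8, 59.3 and 61.3, against 31.4, 37.7 and 44.0 as the lowest, median and highest of 8 ZT0 animals. The log2 difference was 0.57 (SE 0.10, limma adjusted p = 0.000144), and it stayed called with the share covariate (0.40, adjusted p = 0.00293) and with neighbour centring (0.53, adjusted p = 0.00395). The upstream Dbp peak was higher at ZT12 as well (0.55, SE 0.13, limma adjusted p = 0.00761), with adjusted p = 0.0397 and 0.0224 under the same corrections, and adjusted p = 0.0625 within batch 1 and 0.0513 without T12N2.

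At ZT12 5 members were lower than at ZT0, including 3 in the Per2 window and both intergenic peaks that were higher at T36. None of the 5 passed the F-test over the 5 times of day (limma adjusted p between 0.0526 and 0.112). The Arntl upstream peak had 3.03, 4.66, 4.73, 6.72 and 9.40 at ZT12, against 7.81, 8.66 and 10.9 as the lowest, median and highest at ZT0 (log2 difference -0.70, SE 0.17, limma adjusted p = 0.00822). This call was lost within batch 1 (limma adjusted p = 0.118) and without T12N2 (limma adjusted p = 0.0923). The peak in the Ciart window differed by -0.64 (limma adjusted p = 0.0319), with groups overlapping. Its call was lost within batch 1 (limma adjusted p = 0.27) and without the intensity trend (limma adjusted p = 0.0547). It was also lost without any 1 of T12N1, T12N2, T12N6, J70N1, J70N2, T0N1, T0N3 and T0N8 (limma adjusted p between 0.059 and 0.154). The Per2 window peaks lay in the bodies of Lrrfip1 (-0.70, limma adjusted p = 0.0122) and Ramp1 (-0.73, limma adjusted p = 0.0177), and between genes (-0.86, limma adjusted p = 0.00671). Over all peaks 1.29% were higher and 1.27% lower at ZT12 than at ZT0. Lower members were thus about as frequent as lower peaks over all. The T36 comparison and the ZT12 against ZT0 comparison share the ZT12 controls, so the opposite signs of the same peaks in them are not independent. The 7 calls between ZT12 and ZT0 were 4 without T12N2, 3 without T12N6 and 1 within batch 1.

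At ZT6 7 members were higher than at ZT0 and 0 lower, beside 0.118% and 0.522% of all peaks. The downstream Dbp peak had 7.47, 7.58, 8.04, 8.83 and 9.22 at ZT6, against 1.28, 4.11 and 5.86 as the lowest, median and highest at ZT0 (log2 difference 1.06, SE 0.19, limma adjusted p = 0.00138). The lowest ZT0 value rests on 3 reads. The upstream Dbp peak differed by 0.71 (SE 0.13, limma adjusted p = 0.00201) and the Ciart start peak by 0.47 (SE 0.10, limma adjusted p = 0.00842). The other 4 were all in the Dbp window, over the starts of Bax and Sphk2 and in the bodies of Ppfia3 and Trpm4. RNA of Trpm4 was higher at ZT6 than at ZT0 (0.33, limma adjusted p = 0.000821) and RNA of Sphk2 lower (-0.37, limma adjusted p = 0.000189). RNA of Bax (-0.04, limma adjusted p = 0.518) and Ppfia3 (0.05, limma adjusted p = 0.36) was not called.

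With either correction, the share covariate or neighbour centring, 0 members were called. The count was 2 without T6N4, 3 without T0N9 and 4 without T0N5 or J76N2. The Dbp window's median was 0.21 at ZT6 against ZT0, where 92 of its 103 peaks were above zero, and edgeR called 3 members, all 3 among the 7. The T30 and the ZT6 against ZT0 comparisons share the ZT6 controls. As values with no test, signal at T30 and at ZT0 was as follows: the upstream Dbp peak averaged 12.1 at T30 and 12.7 at ZT0, and the Ciart peak 37.6 at T30 and 37.8 at ZT0. Both T30 means thus lay close to those of undisturbed animals at ZT0, the hour at which deprivation began, and below those at ZT6. This did not hold for all 7 peaks called at T30. In 4 the T30 change against ZT6 was larger in size than the ZT6 against ZT0 difference. The 2 values were -0.77 and 0.45 in Ppfia3, and -0.63 and 0.31 over the Lin7b start. In Sult2b1 they were -1.06 and 0.19, and -0.94 and 0.40. The downstream Dbp peak had -1.05 and 1.06.

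Across animals, the Ciart start peak and Ciart RNA rose together. Over 59 animals with both assays Pearson's r was 0.725 and Spearman's rho 0.716 (permutation p = 1e-05 for each, the smallest that 100000 permutations can give; adjusted p = 4e-05 over the 4 genes). It was 0.713 within batch 1 (n = 40, permutation p = 1e-05), 0.759 within batch 2 (n = 19, permutation p = 0.0002) and 0.69 without the 2 animals farthest from the median peak level. After subtracting the median of all start-proximal peaks in each library r was 0.736. The animals belong to 17 groups, so r follows differences between times and between deprived and undisturbed groups along with differences between animals. The permutations took no account of group. Their p-values, here and for the other genes below, therefore do not test a relation among animals of the same group.

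For Dbp, r between the start peak and RNA was 0.484 and rho 0.473 (permutation adjusted p = 0.0002 and 0.00032), 0.529 within batch 1 and 0.407 within batch 2, where it did not pass (n = 19, permutation adjusted p = 0.167). For Per2 it was negative, at -0.30 with rho of -0.303 (permutation adjusted p = 0.0279 and 0.0257). The Per2 relation passed in neither batch, at -0.32 (permutation adjusted p = 0.0595) and -0.27 (permutation adjusted p = 0.348). Arntl gave -0.137 and rho -0.207 (permutation adjusted p = 0.301 and 0.116).

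**Figure D5:**
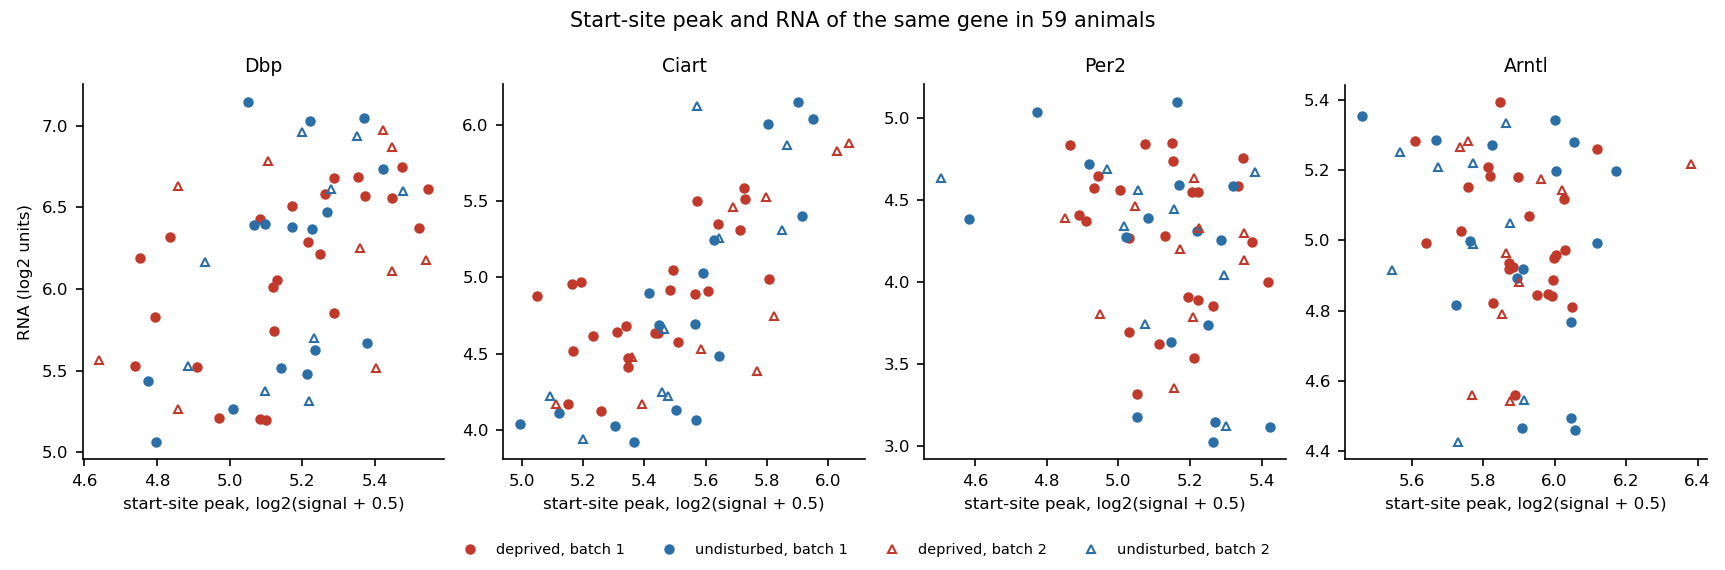
RNA of each gene in log2 units (vertical axis) against the peak over its start, as log2 of normalized signal plus 0.5 (horizontal axis), in 59 animals; red is deprived and blue undisturbed, with filled points for batch 1 and open triangles for batch 2. Ciart points rise together (r = 0.725), Dbp points less closely (0.484), and Arntl has r = -0.137.

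As a description over the 16 groups of at least 3 ATAC animals, the member whose group means came nearest to its gene's RNA was the start peak for Ciart (r = 0.78), with 0.2% of all peaks as close or closer. For Dbp it was the upstream flanking peak (r = 0.787, 0.265% of all peaks) and next the downstream one (r = 0.768). The third was a peak nearest the start of Ppfia3, 338 kb away (r = 0.76), and the Dbp start peak ranked 6 (r = 0.735). For Arntl it was the peak 42.6 kb upstream (r = 0.688, 1.24% of all peaks), with a peak 345 kb upstream close to it (r = 0.672), while the Arntl start peak gave -0.044. Each nearest member was picked on these same values, out of 69 members for Arntl and up to 103 for Dbp. Picking the best of so many gives a small share by itself, and for Arntl a share of about the size found. For Per2 the nearest member was 371 kb away in the direction of the gene's end (r = 0.415), which 9.92% of all peaks matched, and the start peak gave -0.441. Over whole windows the median r was 0.276 for Dbp, against 0.042 over all peaks, and 0.107 for Ciart, against 0.032. It was -0.171 for Per2, against -0.013 over all peaks, and -0.033 for Arntl, against -0.029.

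In a list of 22 clock genes that holds these 4, 9 were higher and 8 lower in RNA at T30, where 31.6% of all genes changed. A peak within 1 kb of the start was found for 19, and the one call, lower, was that of Ciart, beside 0.427% of all peaks. In sign, 17 of the 19 lay below zero, with a median of -0.21, beside 69.3% and -0.10 for all start-proximal peaks. Per1, a paralogue of Per2, was higher in RNA by 1.03 log2 units (limma adjusted p = 0.000275) with a start peak at -0.19 (adjusted p = 0.696). Nfil3, a repressor that competes with Dbp, was higher by 0.93 (limma adjusted p = 5.36e-08) with a start peak at -0.33 (adjusted p = 0.29).

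At T27 the clock genes had 5 higher and 2 lower in RNA (15.6% of all genes changed), and 0 of 19 start peaks called. At T36 they had 2 higher and 7 lower (11.9% of all genes changed), and 0 start peaks called. Tef and Hlf, the relatives of Dbp, were lower in RNA at T36 by -0.40 (limma adjusted p = 1.76e-06) and -0.33 (limma adjusted p = 0.00029), with start peaks at 0.04 and -0.02.

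At the edge of the windows, the outermost Dbp member, 493.2 kb from the anchor, had a T30 change of 0.15, and the nearest peak outside, at 500.7 kb, had -0.17. The outermost member and the nearest peak outside, which lie at opposite ends of the window for Per2 and Arntl, had -0.76 and -0.22 for Per2, -0.22 and 0.01 for Ciart, and -0.46 and -0.57 for Arntl.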

How the data were processed

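ATAC-seq values were deposited as normalized signal per peak and library, and RNA values as log2 levels per gene, per the file headers and the values. The submitters' processing notes name MACS2 2.1.1, bedtools 2.26.0 and HTSeq 0.6.1 beside kallisto 0.43.0 and sleuth 0.29.0, on GRCm38 and mm10. Their roles, order and settings are not given there. Every ATAC value was a whole number of reads times a step of its library (100% of values, tolerance 0.02). The steps gave the reads back. Low reads limit precision: a peak with 10 reads per library shows only large changes. Peak positions are those of the deposited peak annotation on mm10. Promoters and starts come from RefSeq (GRCm38.p6), except that the Per2 start was taken as the upper end of its annotated span, since the gene is known to lie on the minus strand.

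Each assay was fitted with limma 3.58.1 (R 4.3.3): log2(signal + 0.5), or RNA as deposited, 17 group means, a batch term and an intensity trend, over 59 ATAC libraries and 62 RNA animals. P-values were two-sided and adjusted by the Benjamini-Hochberg method over 130727 peaks or 13842 genes. Fold changes of low peaks are understated by the pseudocount. ZT0 animals labelled T0 and T24 were 1 group. Repeat libraries were left out. Labels place T36 within deprivation, and the protocol's earlier end was used. RNA levels looked adjusted for batch by the authors. Animal numbers pair no samples: residuals of same-numbered animals had a median correlation of -0.00245 over 315 pairs. Replicate libraries differed by a mean chi-square per peak of 1.073 to 3.526.

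Named peaks were the peak nearest each start, the called members with the widest change (at most 6 per direction in the first 3 comparisons, 3 in later ones), and at most 8 called for time of day. Per window the 3 members most like the gene's RNA were also taken. Members and lists were chosen with earlier results of these data known. The model was tested on simulated reads. Alternatives were edgeR 4.0.16, pseudocounts of 1 and 2, a filter on low signal, quantile normalization, no batch term, batch 1 only, array weights, no trend, a replicate block, other windows, each library left out, and the 2 corrections added later. The same settings for RNA at T48 and T72 were added after seeing the data.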

Additional observations from a re-analysis of the deposited data

Results flagged for a closer look

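One group of 52 tested held a library apart from the rest of its group, and chance alone is known to single out about 1 group in 20. In the Sult2b1 body peak chr7_180783 the ZT12 animal T12N2 had a signal of 5.39, against 2.76 to 3.15 in the other ZT12 animals. The peak had as few as 6 reads in a library, and its call at T30 does not use ZT12 animals.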

How the results depend on the processing

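Counts of called members were 1 (T27), 7 (T30), 2 (T36), 0 (the other 9 deprivation comparisons), 4 (time of day), 7 (ZT6 against ZT0) and 7 (ZT12 against ZT0), and no named value changed sign where it was called. Pseudocounts of 1 and 2, quantile normalization, a filter on low signal, no batch term, windows around the transcription start and placing peaks by their centre left all counts within 1.5 times. With edgeR, T36 had 0 and ZT6 against ZT0 had 3. Within batch 1, T36 had 1, time of day 2, ZT6 against ZT0 3 and ZT12 against ZT0 1. Array weights gave 7 in the other 9 comparisons, 8 for time of day, 4 for ZT6 and 12 for ZT12 against ZT0. Without the intensity trend T36 had 0 and ZT6 against ZT0 had 3. Windows of 250 kb gave 0 at T27, 1 at T36 and 4 for ZT12 against ZT0. An adjusted p below 0.1 gave 14 at T30, 11 for time of day and 11 for ZT12 against ZT0. The start-proximal share as a covariate gave 2 at T27, 1 at T30, 7 for time of day, 0 for ZT6 and 13 for ZT12 against ZT0. Neighbour centring gave 0 at T27, 3 at T30, 1 at T36, 1 for time of day and 0 for ZT6 against ZT0.

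The replicate block by animal number gave 0 at T27, 6 at T30, 1 at T36, 3 for time of day, 2 for ZT6 and 8 for ZT12 against ZT0; the numbers are not shared animals. Among single values it moved the Ciart start peak at T30 to -0.42 (limma adjusted p = 0.0581), Dbp RNA at T27 to -0.38 (limma adjusted p = 0.0751), Ciart RNA at T48 to 0.67 (limma adjusted p = 0.0526) and Dbp RNA at T72 to 0.62 (limma adjusted p = 0.104). Leaving out 1 library at a time gave 0 to 0 at T27, 1 to 8 at T30, 0 to 2 at T36, 3 to 8 for time of day, 2 to 8 for ZT6 and 3 to 8 for ZT12 against ZT0, and 0 in the other 9, where the only T66 library could not be left out. The Dbp peak and RNA had r = 0.407 within batch 2, and Per2 had -0.32 within batch 1, -0.27 within batch 2 and -0.213 after subtracting the median of start-proximal peaks. Where no value shows a cause, the cause was not tested. About 20 reads in a typical member limit calls to large changes.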
